A study of Mus musculus with 6 samples.

Results

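Old mesenchymal stem cells (MSCs) given sodium acetate were compared with untreated old MSCs, using CUT&RUN profiles of acetylated histone H3 (H3ac). The comparison used 4 of the 6 libraries of the series, OldAcetate replicates 1 and 2 and Old replicates 1 and 2, chosen by their labels, and all 24431 regions of the deposited table. Mice of 18 to 22 months gave the MSCs of both groups. The OldAcetate cells received 5 mM sodium acetate for 3 days and the Old cells no treatment. The remaining libraries, Young replicates 1 and 2, came from untreated MSCs of mice of 3 to 5 months and helped to estimate the spread between replicates. All cells were cultured at 2% oxygen in medium with 10% FBS and 1% penicillin/streptomycin, so the low oxygen was common to every group. Strain, sex, the tissue of origin and the number of animals or cultures behind a library are not given in the labels, so p-values measure the spread between these libraries, which may be technical.

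Acetylation of the tails of histone H3 neutralises the charge of lysines, is recognised by bromodomain and YEATS proteins, and is concentrated at active promoters and enhancers. The acetyl group comes from acetyl-CoA, which cells make from mitochondrial citrate through ATP-citrate lyase (Acly) or directly from acetate through the acetyl-CoA synthetases Acss1 and Acss2. The design therefore asks whether acetate, given to old cells, raises H3ac and at which places in the genome.

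Each region was measured in RPM, its reads scaled to the total of the library. The 4 libraries held from 2163351 to 2975948 reads in all, and the median region held 31 to 48 reads. The regions covered 201 Mb, had a median length of 5500 bp and ranged from 500 to 162500 bp. A region was classed as promoter when a protein-coding start site lay inside it or at most 1 kb away (10830 regions), otherwise exonic (4866), intronic (4008) or intergenic (4727), and the last 3 classes together are named distal. The Old replicates were the least alike of the pairs among the 4 libraries. The SD over regions of their log2 difference was 0.41, against 0.34 for the OldAcetate pair and 0.36 to 0.40 for pairs of different groups. The median region held 31 and 33 reads in Old, against 48 and 38 in OldAcetate. Library totals did not follow this order, at 2163351 and 2514391 reads in Old and 2975948 and 2397539 in OldAcetate. The part of counting noise in these SDs was not tested.

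The labelled cell type was checked first. All 18 stromal stem cell markers, among them Pdgfra, Ly6a, Thy1 and the limb mesenchyme factors Prrx1 and Twist1, had a region within 1 kb of a start site. A region within 10 kb was listed for 9 of 20 blood and macrophage markers, 5 of 12 endothelial markers, 4 of 16 neural genes and 2 of 16 liver and gut genes. Ptprc, Adgre1 and Cd3e, which define leukocytes, macrophages and T cells, had none. Cx3cr1, also a macrophage gene, was among the 9 blood and macrophage markers with a region, so signal of such cells was not absent from the list. In a bulk profile, fewer cells with a mark and less of the mark per cell cannot be told apart.

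Signal inside the regions made up a larger share of both acetate libraries. It was 49.9% and 45.9% of all reads in Old and 57.3% and 56.3% in OldAcetate, so the groups did not overlap and the difference of 8.88 percentage points exceeded the pooled SD between replicates of 2.06 points (n = 2 each). Outside the regions, the shares were 50.1% and 54.1% in Old and 42.7% and 43.7% in OldAcetate. These are the same measurement, since every value is a share of its library. The median over regions of log2(RPM + 0.5) was 3.89 and 3.77 in Old and 4.06 and 4.03 in OldAcetate, a difference of 0.21 (pooled SD 0.06). For both measures the exact two-sided permutation test gave p = 0.333, the smallest value that 2 libraries against 2 allow.

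**Figure D1:**
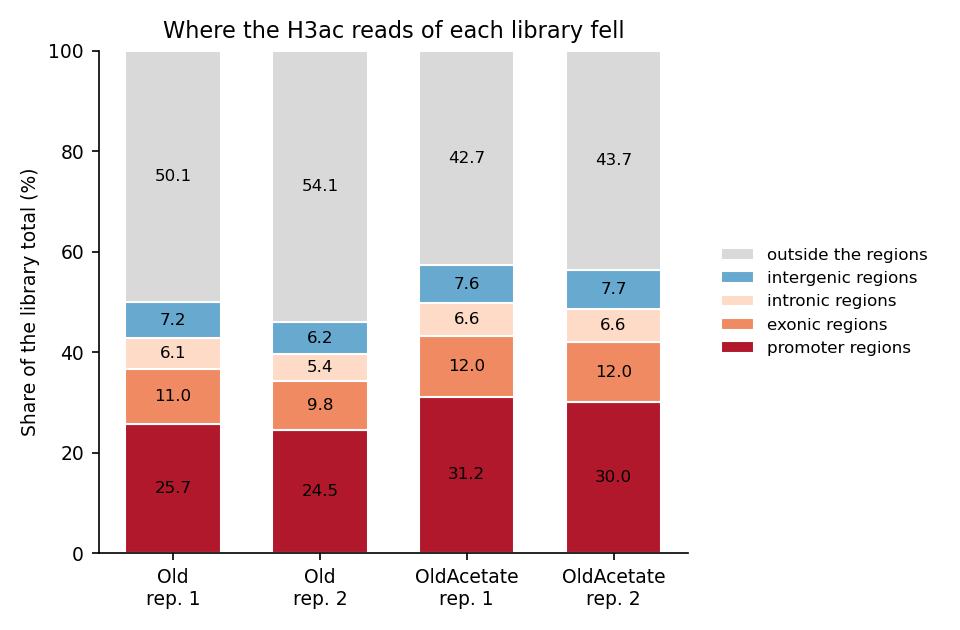
Stacked bars give, for each Old and OldAcetate library, the percent of its reads in promoter, exonic, intronic and intergenic regions and outside all regions. The promoter part was 25.7% and 24.5% in Old and 31.2% and 30.0% in OldAcetate, and the outside part was smaller in both OldAcetate libraries.

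Promoters carried most of this gain. Promoter regions held 25.7% and 24.5% of the reads in Old and 31.2% and 30.0% in OldAcetate, and both acetate libraries lay above both controls. Their summed signal was 22.0% higher with acetate, against 15.4% for exonic, 14.2% for intronic and 13.97% for intergenic regions. Promoters made up 44.3% of the regions and 52.3% of the region reads in Old, and they took 62.2% of the gain. Exonic regions went from 10.98% and 9.83% of the library in Old to 12.0% and 12.0% in OldAcetate. Intronic regions went from 6.10% and 5.41% to 6.55% and 6.59%, and intergenic regions from 7.17% and 6.21% to 7.58% and 7.66%. The difference was therefore positive in every class, with no overlap between the groups.

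Region by region, the median promoter had a log2 fold change of 0.29 with the values as given. The medians were 0.20 for exonic, 0.19 for intronic and 0.19 for intergenic regions, beside 0.24 for all regions. The groups did not overlap and acetate was higher in 58.3% of the promoter regions, 41.7% of the exonic, 37.2% of the intronic and 35.3% of the intergenic ones, against 47.1% of all regions. Acetate was lower without overlap in 3.46% of all regions and 1.93% of the promoters. A fold change above 0 was seen in 89.8% of the promoters and 83.2% of all regions.

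Median-of-ratios scaling subtracts from each library its median deviation from the region means. It so removes a common shift close to 0.24, the median change over all regions. After it the median of all regions was 0.00, that of promoters 0.05, and those of exonic, intronic and intergenic regions -0.03, -0.05 and -0.05. The direction of the distal classes thus depends on the scaling. Their order cannot change, since the scaling subtracts the same constant from every region of a library. The gap between promoters and distal regions is free of scaling and was measured within each library. The median promoter exceeded the median distal region by 0.31 and 0.46 on the log2 scale in Old and by 0.53 and 0.46 in OldAcetate. The mean gap was 0.11 larger with acetate (pooled SD 0.08, exact two-sided permutation p = 0.333), but Old replicate 2 and OldAcetate replicate 2 were nearly equal. Leaving out Old replicate 1 gave a difference of 0.04 and leaving out Old replicate 2 gave 0.19, so its size rests on which control is used.

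**Figure D2:**
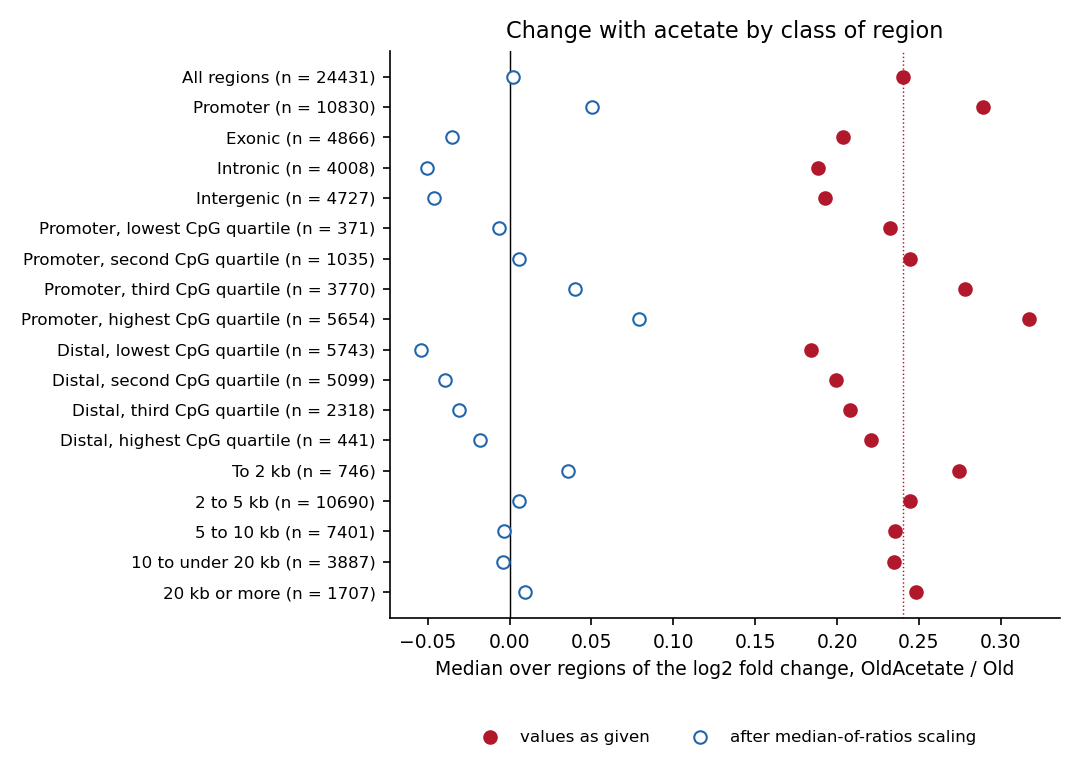
Points give the median over regions of the log2 fold change (OldAcetate / Old, horizontal axis) for classes of regions (vertical axis, number of regions in brackets), with values as given (filled) and after scaling (open). The dotted line marks the median of all regions at 0.24, and promoters with the most CpG lie farthest to the right at 0.32.

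The changes also differed by base composition. CpG is the dinucleotide that is dense in the CpG islands of housekeeping promoters, and regions were divided into quartiles by their CpG per 100 bases. Median log2 fold changes from the lowest to the highest CpG quartile were 0.19, 0.21, 0.26 and 0.31. Among promoters alone they were 0.23, 0.24, 0.28 and 0.32, and among distal regions 0.18, 0.20, 0.21 and 0.22, so each promoter quartile lay above the distal quartile of the same CpG range. Within libraries, the median of the highest CpG quartile minus that of the lowest was -0.05 and 0.14 in the Old libraries, beside 0.22 and 0.12 in the OldAcetate libraries. The groups overlapped (difference 0.13, pooled SD 0.11, exact two-sided permutation p = 0.667), and leaving out Old replicate 1 or 2 gave differences of 0.03 and 0.22. Region length did not separate the median changes in the same way. Median log2 fold changes ran from 0.23 in regions of 10 to under 20 kb to 0.27 in regions up to 2 kb long, with 0.25 in those of 20 kb or more. The share of regions higher with acetate without overlap did rise with length. It was 35.1% up to 2 kb and 75.2% at 20 kb or more, where the median levels were 5.47 and 73.2 RPM. Quartiles by repeat content all had a median of 0.24, and chromosome medians ran from 0.22 to 0.27.

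Promoter sequences of some genes are printed as examples, and they do not span the full range of CpG. RefSeq windows of 300 bases (GRCm38.p6, from 250 bases before to 50 after a start) were matched by coordinates, and 14836 windows of 12280 genes lay wholly inside a region. Of the 76 regions called below, 53 held a window. The first 4 sequences belong to called regions that are described below, those of Acss2 and Acly to the enzymes that make acetyl-CoA from acetate and from citrate, and that of Pdgfra to a stromal marker with few CpG. They are written 5′ to 3′ on the strand of the gene, with each CG in capitals. The windows are Eif3m (chr2:105016978-105017277, minus strand), Rpl31 (chr1:39367601-39367900, plus), Tomm20 (chr8:126945872-126946171, minus), Smad3 (chr9:63757945-63758244, minus), Acss2 (chr2:155517793-155518092, plus), Acly (chr11:100527951-100528250, minus) and Pdgfra (chr5:75152001-75152300, plus).
Eif3m: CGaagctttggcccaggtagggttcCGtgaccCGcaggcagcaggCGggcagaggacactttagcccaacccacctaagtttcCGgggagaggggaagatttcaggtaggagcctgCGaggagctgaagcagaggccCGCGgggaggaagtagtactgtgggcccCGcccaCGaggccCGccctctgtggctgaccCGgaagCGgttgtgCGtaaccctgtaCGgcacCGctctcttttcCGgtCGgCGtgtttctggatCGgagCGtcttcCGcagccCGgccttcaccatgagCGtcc
Rpl31: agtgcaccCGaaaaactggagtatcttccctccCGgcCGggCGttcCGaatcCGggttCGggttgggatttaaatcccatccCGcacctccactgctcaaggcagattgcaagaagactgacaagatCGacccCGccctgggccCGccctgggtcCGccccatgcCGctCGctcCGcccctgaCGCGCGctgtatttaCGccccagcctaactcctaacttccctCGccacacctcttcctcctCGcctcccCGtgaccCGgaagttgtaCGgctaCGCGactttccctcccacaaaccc
Tomm20: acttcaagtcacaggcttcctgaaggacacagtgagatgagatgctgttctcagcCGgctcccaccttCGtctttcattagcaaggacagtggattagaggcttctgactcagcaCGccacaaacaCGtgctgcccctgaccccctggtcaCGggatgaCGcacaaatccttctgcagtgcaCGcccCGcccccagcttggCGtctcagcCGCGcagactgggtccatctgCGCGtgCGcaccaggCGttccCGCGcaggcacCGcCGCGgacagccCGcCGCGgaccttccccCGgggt
Smad3: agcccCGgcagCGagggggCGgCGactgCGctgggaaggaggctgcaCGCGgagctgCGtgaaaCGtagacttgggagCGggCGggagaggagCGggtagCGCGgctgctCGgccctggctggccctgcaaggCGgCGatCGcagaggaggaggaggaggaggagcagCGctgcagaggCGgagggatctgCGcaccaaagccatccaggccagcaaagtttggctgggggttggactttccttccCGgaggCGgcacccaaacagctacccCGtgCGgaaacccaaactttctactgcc
Acss2: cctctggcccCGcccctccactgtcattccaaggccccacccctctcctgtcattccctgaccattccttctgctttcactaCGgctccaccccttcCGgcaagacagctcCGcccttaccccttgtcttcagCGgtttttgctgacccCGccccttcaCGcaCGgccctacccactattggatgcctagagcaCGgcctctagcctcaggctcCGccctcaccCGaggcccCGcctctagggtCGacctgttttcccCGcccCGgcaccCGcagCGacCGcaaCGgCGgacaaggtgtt
Acly: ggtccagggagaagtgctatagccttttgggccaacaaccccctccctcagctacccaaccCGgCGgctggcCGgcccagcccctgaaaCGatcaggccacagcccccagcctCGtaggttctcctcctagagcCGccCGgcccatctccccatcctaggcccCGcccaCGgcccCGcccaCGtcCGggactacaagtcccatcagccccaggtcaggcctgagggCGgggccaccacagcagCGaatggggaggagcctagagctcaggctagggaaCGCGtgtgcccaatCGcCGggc
Pdgfra: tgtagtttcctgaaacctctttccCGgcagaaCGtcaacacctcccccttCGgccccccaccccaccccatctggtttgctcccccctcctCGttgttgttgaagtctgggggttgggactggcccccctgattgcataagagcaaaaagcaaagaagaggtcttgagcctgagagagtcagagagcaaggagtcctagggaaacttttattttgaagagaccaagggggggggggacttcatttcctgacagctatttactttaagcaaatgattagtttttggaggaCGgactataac

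The Eif3m window held 24 CpG, Rpl31 26, Tomm20 24 and Smad3 25. Acss2 held 20, Acly 18 and Pdgfra 5. The median was 17 in windows of called regions (range 0 to 59), 20 in windows of all regions and 7 in all 32851 windows of the genome. The printed windows of Eif3m, Rpl31, Tomm20 and Smad3 thus held more CpG than the median window of called regions. Regions whose most CpG-rich window held 0 to 4 CpG (855 regions) had a median log2 fold change of 0.22. The median was 0.26 at 5 to 14 CpG, 0.28 at 15 to 24, 0.30 at 25 to 34 and 0.31 at 35 or more (1620 regions). Within libraries, the median log2 level of the last of these groups minus that of the first was 0.03 and 0.19 in Old and 0.23 and 0.16 in OldAcetate, so the groups overlapped here as well.

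Short motifs separated the promoters less than CpG did. The GC box of Sp factors (GGGCGG or CCGCCC) was in 56.4% of the windows of called regions, 60.2% of the windows of all regions and 35.7% of all windows. The ETS motif (CCGGAAG or CTTCCGG) was in 19.8%, 16.0% and 8.86%, and the CCAAT box (CCAAT or ATTGG) in 35.6%, 36.6% and 37.4%. Regions with and without a GC box in a window had median log2 fold changes of 0.29 and 0.27, and those with and without an ETS motif 0.30 and 0.28. The CRE (TGACGTCA), the E-box (CACGTG), the AP-1 motif (TGANTCA) and the TATA box (TATAAA or TTTATA) were in 2.93%, 9.54%, 5.68% and 7.18% of the windows of all regions and in 1.79%, 7.15%, 7.81% and 13.6% of all windows. Regions with any of these motifs had medians from 0.25 for AP-1 to 0.29 for the E-box, and those without it 0.28 or 0.29. The CRE, the E-box and the AP-1 motif have the same letters on both strands, and matches of different motifs can overlap.

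Single regions were tested with limma across all 24431 regions. With the values as given, 76 regions passed a Benjamini-Hochberg adjusted p of 0.05, or 0.311% of those tested. All 76 were higher with acetate, and limma called 0 lower (62 regions, 0.254%, at an unadjusted p under 0.05, and 0 called by edgeR without factors). By class, 55 of the 76 were promoters (72.4%, against 44.3% of all regions), 12 exonic, 6 intronic and 3 intergenic. Regions at least 20 kb long made up 19 of the 76 and 6.99% of all regions. They lay on 15 of 20 chromosomes and held start sites of 69 protein-coding genes. The calls rest on both acetate libraries and on the spread that the other libraries give. There were 0 calls without OldAcetate replicate 1 and 0 without OldAcetate replicate 2 (2301 and 2547 regions at an unadjusted p under 0.05). There were 441 calls without Old replicate 1 and 103 without Old replicate 2, of which 46 and 28 were among the original 76. Without Young replicate 1 or 2 there were 222 and 219 calls, and both sets held all 76. After scaling, limma called 0 regions, with 770 higher (3.15% of those tested) and 754 lower (3.09%) at an unadjusted p under 0.05. With their own scaling factors, edgeR also called 0 (1304 with RLE and 1314 with TMM factors at an unadjusted p under 0.05), as did DESeq2 (134).

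**Figure D3:**
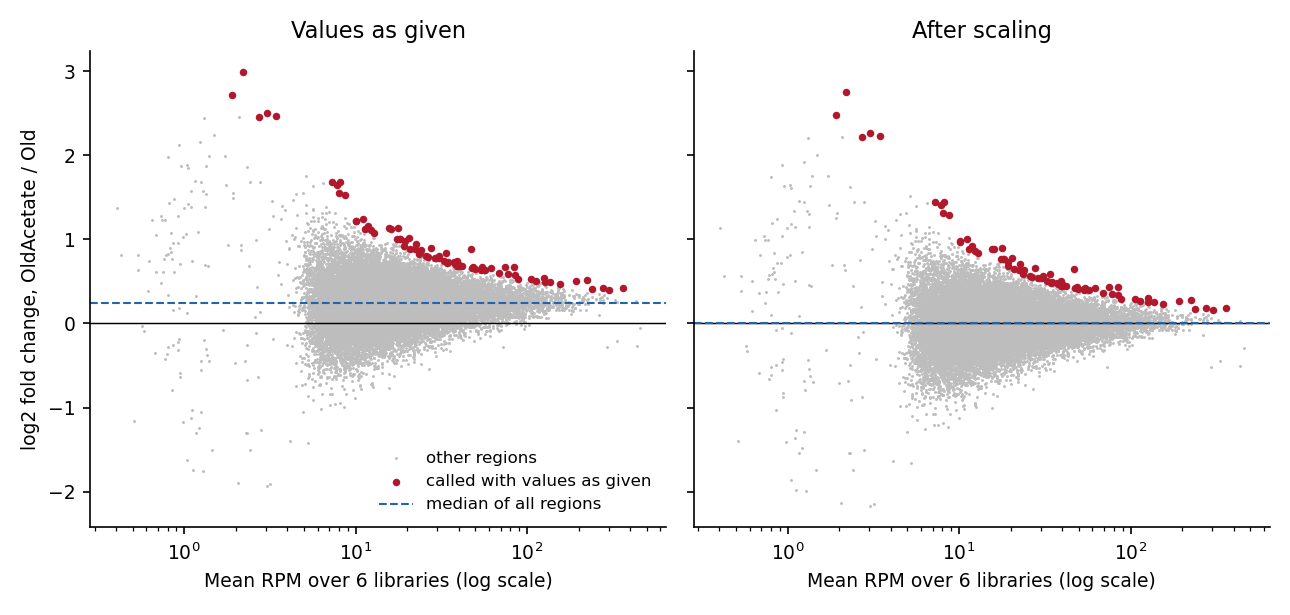
Each point is 1 of 24431 regions, with its mean RPM over 6 libraries (log axis) against its log2 fold change (OldAcetate / Old), with values as given (left) and after scaling (right). The 76 regions called with the values as given (dark points) are all higher with acetate, and the dashed line is the median of all regions, 0.24 on the left and 0.00 on the right.

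Of the called regions at or above the median level, the 14 with the largest fold changes were taken. They ran from 0.88 to 1.14 on the log2 scale, and 12 of them were promoters. Called rises were taken, so the lack of overlap between the groups in these regions was fixed by the choice. Without Old replicate 1 limma still called 11 of the 14, and without Old replicate 2 it called 9. Oxr1, a gene of oxidation resistance, had the largest change in this set (chr15:41829501-41833500). It held 9.24 and 11.5 RPM in Old and 26.5 and 20.4 RPM in OldAcetate, a log2 fold change of 1.14 (SE 0.24, limma adjusted p = 0.0222). Its region was poor in CpG, at 0.75 per 100 bases against a median of 1.40 over all regions.

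Tomm20 encodes the import receptor of the outer mitochondrial membrane. Its region (chr8:126939001-126948500) had 12.9 and 13.5 RPM in Old and 23.2 and 26.7 RPM in OldAcetate, and both acetate values were higher (log2 fold change 0.89, limma adjusted p = 0.0465, and 0.0605 without Old replicate 2). Pccb, a subunit of propionyl-CoA carboxylase, had 17.1 and 11.5 RPM in Old and 25.9 and 26.7 RPM in OldAcetate (chr9:101031501-101039500, log2 fold change 0.88, limma adjusted p = 0.0465). The controls were apart here, and without Old replicate 2 its log2 fold change was 0.61 and it was no longer called (limma adjusted p = 0.248). An intergenic region 18862 bp from the start site of Uqcrfs1, the iron-sulfur subunit of respiratory complex III, had 11.6 and 11.9 RPM in Old and 20.2 and 25.4 RPM in OldAcetate (log2 fold change 0.92, limma adjusted p = 0.0465, and 0.0632 without Old replicate 2).

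Eif3m, a subunit of an initiation factor, had 12.9 and 13.1 RPM in Old and 27.9 and 25.9 RPM in OldAcetate (chr2, log2 fold change 1.02, SE 0.22, limma adjusted p = 0.0236). The replicates of each group were close and the groups lay far apart. Rpl31, a protein of the large ribosomal subunit, had 13.9 and 15.9 RPM in Old and 30.6 and 27.5 RPM in OldAcetate (log2 fold change 0.94, limma adjusted p = 0.0293). The region over Mrto4, a ribosome assembly factor, and Emc1, of the endoplasmic reticulum membrane complex, had 9.71 and 10.7 RPM in Old and 21.2 and 24.6 RPM in OldAcetate (log2 fold change 1.12, limma adjusted p = 0.0236). The region over Yars, the tyrosyl-tRNA synthetase, and S100pbp went from 10.6 and 12.3 RPM to 23.9 and 22.9 RPM (log2 fold change 1.00, limma adjusted p = 0.0411, and 0.0505 without Old replicate 1).

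Also in the set were the regions of Atxn2, an RNA-binding protein, Ciao2b, of cytosolic iron-sulfur assembly, Trove2 and Uchl5, Kdelr3, a retrieval receptor of the secretory pathway, and an exonic region in Bank1. Their log2 fold changes ran from 0.88 for Kdelr3 to 1.01 for Atxn2. In the Bank1 region the controls were far apart, at 15.7 and 9.15 RPM, beside 23.2 and 25.0 RPM in OldAcetate. Its log2 fold change ran from 0.60 without Old replicate 2, when it was not called (limma adjusted p = 0.281), to 1.35 without Old replicate 1. The region of Trove2 and Uchl5 went from 0.90 to 0.62 without Old replicate 1 and was then not called (limma adjusted p = 0.108). Ciao2b lost its call without Old replicate 1 and Kdelr3 without Old replicate 2 (limma adjusted p = 0.0534 and 0.0693).

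**Figure D4:**
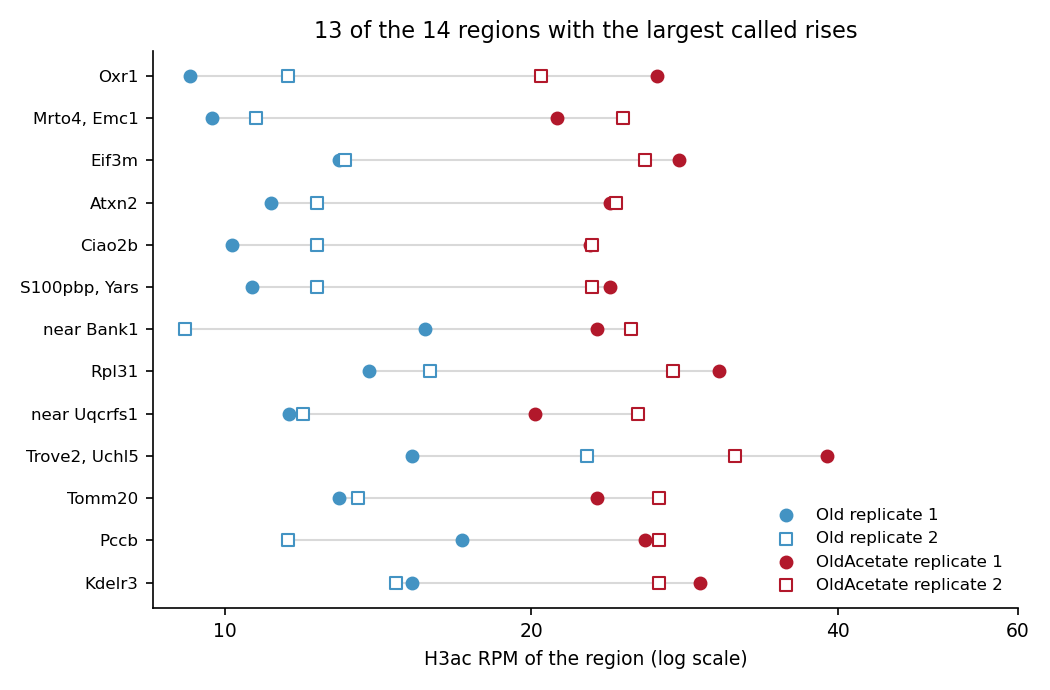
Points give the RPM (log axis) of each Old and OldAcetate library in 13 of the 14 called regions with the largest fold changes at or above the median level, named by the protein-coding start sites inside or nearest to them. The regions were chosen as called rises, and the control points of Bank1 and of Pccb lie farther apart than those of Eif3m or Tomm20.

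The 19 called regions of 20 kb or more had log2 fold changes from 0.40 to 0.67. The called regions named in the following sentences were chosen after their values were seen. Smad3, which transmits TGF-beta signals, had 55.0 and 54.9 RPM in Old and 91.7 and 84.3 RPM in OldAcetate (chr9:63735001-63760000, log2 fold change 0.67, limma adjusted p = 0.0222). Ski, a repressor of the same pathway, had 283 and 300 RPM in Old and 405 and 378 RPM in OldAcetate (log2 fold change 0.42, limma adjusted p = 0.0222). Rara, the retinoic acid receptor alpha, went from 154 and 149 RPM to 213 and 218 RPM (log2 fold change 0.51, limma adjusted p = 0.0222). Smad3 was called without either Old replicate, whereas Ski was called in neither case (limma adjusted p = 0.0724 without replicate 1 and 0.0521 without replicate 2) and Rara not without Old replicate 2 (limma adjusted p = 0.0880).

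Also called were the regions over Loxl1, a lysyl oxidase that cross-links elastin and collagen, Hspg2, the basement membrane proteoglycan perlecan, and Gsn, the actin-severing gelsolin. They were picked one by one from the called regions, and the collagen and matrix list described further on held 0 called regions of 18 with limma. Loxl1 had 113 and 103 RPM in Old and 157 and 148 RPM in OldAcetate. Hspg2 had 99.8 and 96.6 RPM in Old and 130 and 146 RPM in OldAcetate. Their log2 fold changes were 0.50 and 0.49 (limma adjusted p = 0.0455 and 0.0468), and that of Gsn was 0.54 (limma adjusted p = 0.0300). Other called promoters were those of Tbx15, a mesenchymal T-box factor, Zfp36l1, an mRNA decay factor, Prmt1, an arginine methyltransferase, and Ier2, an immediate early gene. Tbx15 had 119 and 132 RPM in Old and 174 and 174 RPM in OldAcetate, and Zfp36l1 had 24.0 and 23.5 RPM in Old and 43.7 and 41.7 RPM in OldAcetate. Of the regions in this paragraph, Zfp36l1 was the single one called without either Old replicate. Tbx15 and Hspg2 were called in neither case, Loxl1, Gsn and Ier2 not without Old replicate 2, and Prmt1 not without Old replicate 1.

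At the other end, 18 of the 76 called regions were below the median level, and some held few reads. A 1 kb region in an intron of Xylt1 had no read in either Old library (0 and 0), beside 7 and 12 reads in OldAcetate. A region of 500 bp near Foxo3, 196 bp from the start site, held 0 and 2 reads in Old and 14 and 8 in OldAcetate, and a region at Snx18 held 1 and 1 reads in Old and 10 and 16 in OldAcetate. Foxo3 was not called without Old replicate 1 (limma adjusted p = 0.0947). Fitted fold changes of such regions depend on the pseudocount and are not given.

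After scaling, when no region passed the threshold, the regions with the lowest p at or above the median level were listed in each direction. Among the higher ones were the regions of Oxr1, of Mrto4 and Emc1 and of Smad3, and an exonic region in the ubiquitin ligase Nedd4. On the lower side were exonic regions that overlap Spsb4, Gosr2 and Tspan9 and the promoter region of Pfkfb2 and Yod1. A further lower region, also classed as exonic, overlapped no protein-coding gene and lay 74781 bp from the nearest start site, that of Lmo4. The region near Spsb4 had 32.8 and 28.6 RPM in Old and 21.8 and 20.0 RPM in OldAcetate. It was lower in both acetate libraries as given, with a log2 fold change of -0.54 (limma adjusted p = 0.151) that became -0.78 after scaling (adjusted p = 0.307). The region near Gosr2 had 20.8 and 17.5 RPM in Old and 12.8 and 11.7 RPM in OldAcetate, a log2 fold change of -0.62 as given (limma adjusted p = 0.166). Neither passed the threshold.

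A further 3 regions rich in repeats or ribosomal sequence were described because earlier work on these data had called them lower. They lie on chr2:98661501-98668000, chr11:3183501-3205000 and chr17:39842001-39849500. Together they held 1350 and 1167 RPM in Old and 1000 and 1107 RPM in OldAcetate, lower in both acetate libraries. Scaled to the reads outside the regions in place of the library total, the sums were 2694 and 2157 in Old and 2341 and 2532 RPM in OldAcetate, and the groups overlapped. The log2 fold changes were -0.28, -0.21 and -0.27 as given (limma adjusted p = 0.596, 0.242 and 0.825) and -0.52, -0.45 and -0.51 after scaling (limma adjusted p = 0.913, 0.893 and 0.944). These fits include the Young libraries, which lay apart, at 183 and 301 RPM in the region on chromosome 2. With only the 4 Old and OldAcetate libraries, limma called the scaled values of the regions on chromosomes 2 and 11 lower (adjusted p = 9.4e-05 and 8.1e-05) and the value as given of the region on chromosome 2 (adjusted p = 0.0383). These were the lower calls of that fit. The same regions were lower after scaling without Young replicate 1 (limma adjusted p = 0.000188 and 0.000169), and all 3 without Young replicate 2 (limma adjusted p = 0.000438, 0.000377 and 0.000687). Of the 79 regions that were more than 50% repeat-masked, 0 were called by limma, and their median log2 fold change was 0.17.

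The genes of acetate use and of histone acetylation were then described, each through the region nearest its start site within 10 kb. Over all regions, acetate was higher at an unadjusted p under 0.05 in 17.7%, and over promoters in 25.4%. Acetate was higher without overlap in 47.1% of all regions and 58.3% of promoters. That share rose with the level of a region (mean RPM), from 34.0% in the lowest level quartile to 65.5% in the highest. The lists differ in level and were not matched for it. After scaling, 3.15% of all regions were higher at an unadjusted p under 0.05. Of the 21 genes of acetyl-CoA supply and use, 0 were called by limma, and 4 were higher and 1 lower at an unadjusted p under 0.05. The groups did not overlap, with acetate higher, in 11 of 21 (52.4%). The list median was 0.28, beside 0.24 for all regions and 0.29 for promoters.

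Acss2, the nuclear and cytosolic acetyl-CoA synthetase, shared its region with the start site of Ggt7. The region had 21.7 and 19.1 RPM in Old and 29.2 and 29.2 RPM in OldAcetate. The groups did not overlap, but the log2 fold change of 0.51 (SE 0.21) did not pass the threshold (limma adjusted p = 0.187) and was 0.27 after scaling. Acss1, the mitochondrial synthetase, had 10.2 and 17.5 RPM in Old and 17.5 and 11.3 RPM in OldAcetate, so the groups overlapped and the replicates differed more than the groups did (log2 fold change 0.07). Acly had 16.6 and 17.1 RPM in Old and 27.2 and 16.7 RPM in OldAcetate, high in OldAcetate replicate 1 alone, and its log2 fold change of 0.33 became -0.02 without that library. Slc25a1, the carrier that exports citrate from mitochondria, had 23.1 and 27.0 RPM in Old and 31.9 and 31.7 RPM in OldAcetate, with no overlap (log2 fold change 0.34, limma adjusted p = 0.331). After scaling its log2 fold change was 0.10, and it ran from -0.07 without Old replicate 1 to 0.28 without Old replicate 2. Dlat, a subunit of pyruvate dehydrogenase, had 13.4 and 14.3 RPM in Old and 20.8 and 20.9 RPM in OldAcetate (log2 fold change 0.57, limma adjusted p = 0.185). Acaca, the acetyl-CoA carboxylase of fatty acid synthesis, was represented by a region of 1 kb with 8 and 5 reads in Old and 0 and 5 in OldAcetate, too few to read.

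For histone acetyltransferases, which transfer the acetyl group, 15 of 16 genes had a region. Of these 0 were called by limma, 7 were higher at an unadjusted p under 0.05, and 14 (93.3%) were higher without overlap, against 58.3% of promoters. The median log2 fold change was 0.43 as given and 0.19 after scaling, and leaving out Old replicate 1 or 2 gave scaled medians of 0.14 and 0.29. Kat5, the catalytic subunit of the NuA4 complex, had 4.16 and 4.77 RPM in Old and 12.8 and 7.51 RPM in OldAcetate (log2 fold change 1.06, SE 0.34, limma adjusted p = 0.108), from 9 to 38 reads a library. Kat2a, the acetyltransferase of SAGA, in a region shared with Hspb9, had 7.86 and 5.97 RPM in Old and 11.4 and 13.8 RPM in OldAcetate (log2 fold change 0.83, limma adjusted p = 0.129). Ep300 had 16.2 and 17.1 RPM in Old and 25.9 and 18.8 RPM in OldAcetate, while its paralog Crebbp had 22.2 and 18.3 RPM in Old and 23.2 and 20.0 RPM in OldAcetate. The groups were apart for Ep300 (log2 fold change 0.40) and overlapped for Crebbp (0.09). For Ep300 it ran from 0.17 without OldAcetate replicate 1 to 0.62 without the other acetate library, so its size rests on one library.

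The 17 readers of acetyl-lysine all had a region. Among them 0 were called by limma and 9 were higher at an unadjusted p under 0.05. Acetate was higher without overlap in 11 (64.7%), against 58.3% of promoters, and the list median was 0.37. Brd1, a bromodomain subunit of acetyltransferase complexes, had 11.6 and 15.9 RPM in Old and 22.5 and 25.0 RPM in OldAcetate (log2 fold change 0.79, limma adjusted p = 0.0862). The chromatin remodeller Smarca2 had 38.4 and 37.0 RPM in Old and 56.8 and 50.9 RPM in OldAcetate (log2 fold change 0.51, limma adjusted p = 0.111), and its paralog Smarca4 had 13.9 and 15.5 RPM in Old and 15.1 and 14.6 RPM in OldAcetate (log2 fold change 0.02). The list of histone deacetylases and sirtuins, which remove acetyl groups, lay lower. Of its 18 genes 16 had a region, 0 were called by limma, 2 were higher at an unadjusted p under 0.05 and 7 (43.8%) were higher without overlap. Its median was 0.19 as given and -0.05 after scaling. Hdac7 had 96.6 and 91.9 RPM in Old and 123 and 114 RPM in OldAcetate (log2 fold change 0.33, limma adjusted p = 0.168), whereas Sirt1, a NAD-dependent deacetylase whose region also holds the start of Dnajc12, had 20.8 and 18.3 RPM in Old and 17.8 and 16.7 RPM in OldAcetate (log2 fold change -0.17, limma adjusted p = 0.699).

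**Figure D5:**
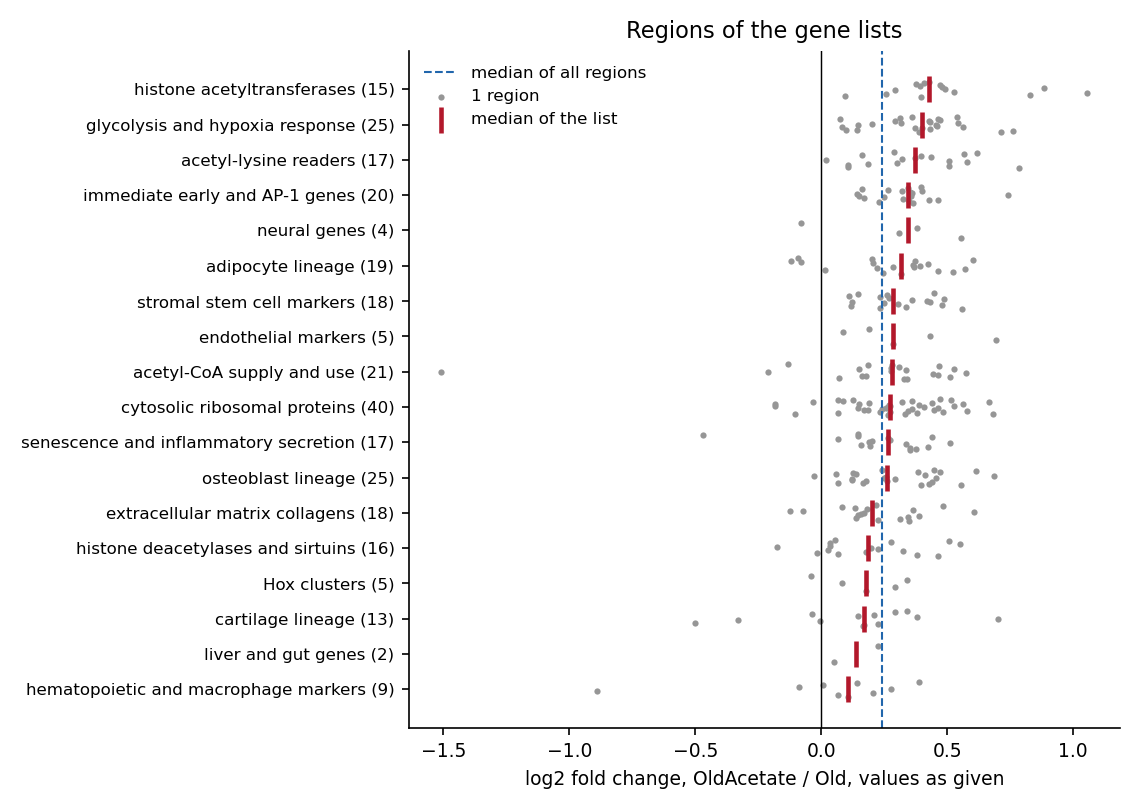
Grey points are the regions of 18 gene lists with their log2 fold changes (OldAcetate / Old, values as given), bars are list medians, and the number of regions stands in brackets. List medians run from 0.11 for blood and macrophage markers to 0.43 for histone acetyltransferases around the dashed median of all regions at 0.24.

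Lineage genes of stromal cells were described next. In the osteoblast list 25 of 30 genes had a region, 0 were called by limma and 11 were higher at an unadjusted p under 0.05. Acetate was higher without overlap in 19 (76.0%), against 58.3% of promoters and 65.5% of the highest level quartile. The median was 0.26 as given and 0.02 after scaling, when 2 of 25 were higher at an unadjusted p under 0.05. Runx2, the master factor of osteoblasts, had 31.9 and 35.4 RPM in Old and 49.1 and 50.1 RPM in OldAcetate (log2 fold change 0.55, SE 0.17, limma adjusted p = 0.0987). Both acetate libraries were higher and the replicates close. Sp7, which acts downstream of Runx2 and shares its region with Aaas, had 68.9 and 70.8 RPM in Old and 93.8 and 90.1 RPM in OldAcetate (log2 fold change 0.39, limma adjusted p = 0.128). Ctnnb1, the beta-catenin of Wnt signalling, had 26.3 and 17.5 RPM in Old and 34.3 and 32.1 RPM in OldAcetate (log2 fold change 0.62, limma adjusted p = 0.107). Col1a1, the main bone collagen, went from 65.2 and 59.3 RPM to 82.7 and 88.0 RPM (log2 fold change 0.45, limma adjusted p = 0.106). Runx2, Sp7, Ctnnb1 and Col1a1 all lay above the list median of 0.26 and do not stand for the list as a whole. No region lay within 10 kb of Bglap, Ibsp, Phex or Sost, genes of mature osteoblasts and osteocytes.

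In the adipocyte list 19 of 22 genes had a region, 0 were called by limma, 6 were higher at an unadjusted p under 0.05 and 9 (47.4%) were higher without overlap, with a median of 0.32. Cebpb, an early adipogenic factor, had 53.2 and 61.6 RPM in Old and 81.0 and 83.8 RPM in OldAcetate (log2 fold change 0.52, SE 0.15, limma adjusted p = 0.0743). Pparg had 24.5 and 17.1 RPM in Old and 23.5 and 27.9 RPM in OldAcetate, so the groups overlapped (log2 fold change 0.32, but 0.06 without Old replicate 2 and 0.57 without Old replicate 1). Cebpa had 85.1 and 75.2 RPM in Old and 91.4 and 98.4 RPM in OldAcetate, with no overlap (log2 fold change 0.25, limma adjusted p = 0.319). In the cartilage list 13 of 17 genes had a region, 0 were called by limma, 1 was higher at an unadjusted p under 0.05 and the median was 0.17. Acan, the proteoglycan aggrecan, had 12.9 and 11.1 RPM in Old and 10.4 and 6.67 RPM in OldAcetate (log2 fold change -0.50, limma adjusted p = 0.346).

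The stromal markers had a median of 0.29. Acetate was higher without overlap in 14 of 18 (77.8%), against 58.3% of promoters and 65.5% of the highest level quartile. Of them 0 were called by limma and 7 were higher at an unadjusted p under 0.05. Pdgfra had 56.9 and 46.5 RPM in Old and 72.9 and 79.2 RPM in OldAcetate (log2 fold change 0.56, SE 0.15, limma adjusted p = 0.0565). Prrx2 had 80.4 and 78.3 RPM in Old and 112 and 111 RPM in OldAcetate (log2 fold change 0.49, limma adjusted p = 0.0607). Both lay just outside the threshold, with groups that did not overlap, and Pdgfra was called without Old replicate 1 (log2 fold change 0.70, limma adjusted p = 0.0237). Ly6a (Sca-1) had 39.8 and 31.4 RPM in Old and 48.1 and 41.7 RPM in OldAcetate (log2 fold change 0.34, limma adjusted p = 0.296), with a range from 0.17 when Old replicate 2 was left out to 0.50 when Old replicate 1 was. For collagens and other matrix genes the median was 0.20 as given and -0.04 after scaling, with 7 of 18 regions higher at an unadjusted p under 0.05 and 0 called by limma. Col12a1, a fibril-associated collagen, had the largest change of that list, from 27.7 and 26.2 RPM to 43.7 and 39.2 RPM (log2 fold change 0.61, limma adjusted p = 0.0929).

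Genes of glycolysis and the hypoxia response had a median of 0.40. All 25 had a region with a fold change above 0, beside 89.8% of promoters. Of these, 0 were called by limma and 15 were higher at an unadjusted p under 0.05, against 25.4% of promoters. Acetate was higher without overlap in 21 (84.0%), against 58.3% of promoters and 65.5% of the highest level quartile. After scaling the median was 0.16 and 1 was higher at an unadjusted p under 0.05. Hif1a, the oxygen-regulated factor, had 61.5 and 49.3 RPM in Old and 72.6 and 71.7 RPM in OldAcetate (log2 fold change 0.39). Its partner Arnt had 7.86 and 7.16 RPM in Old and 14.1 and 12.1 RPM in OldAcetate (log2 fold change 0.76, limma adjusted p = 0.153). Slc2a1, the glucose transporter GLUT1, had 86.4 and 86.3 RPM in Old and 119 and 109 RPM in OldAcetate (log2 fold change 0.40, limma adjusted p = 0.112). The acetate values of these 3 genes were above both control values.

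All 20 immediate early and AP-1 genes had a region. Each region had a fold change above 0, beside 89.8% of promoters. Acetate was higher without overlap in 18 (90.0%), against 58.3% of promoters and 65.5% of the highest level quartile. At an unadjusted p under 0.05, 12 were higher, and the median was 0.35. After scaling the median was 0.11 and 1 of 20 was higher at an unadjusted p under 0.05. The region of Ier2 was the single region of the 18 lists called by limma, at 24.0 and 21.1 RPM in Old and 35.6 and 40.5 RPM in OldAcetate (log2 fold change 0.74, SE 0.19, limma adjusted p = 0.0468). Fos, of the AP-1 dimer, had 98.9 and 88.7 RPM in Old and 119 and 123 RPM in OldAcetate (log2 fold change 0.37, limma adjusted p = 0.128). Of the cytosolic ribosomal protein genes, 40 of 41 had a region, 0 were called by limma, 11 were higher at an unadjusted p under 0.05 and 23 (57.5%) were higher without overlap, against 58.3% of promoters, with a median of 0.27. After scaling, 0 were higher and 1 was lower at an unadjusted p under 0.05. The list did not hold Rpl31, which was called. The regions of the senescence and inflammatory list had a median of 0.27 (0 called by limma, 4 of 17 regions higher at an unadjusted p under 0.05), with Cdkn2a at 68.9 and 65.6 RPM in Old and 89.0 and 85.9 RPM in OldAcetate (log2 fold change 0.38, limma adjusted p = 0.149) in a region shared with Cdkn2b. The 19 Hox genes with a region shared 5 regions, with a median of 0.18 and 0 called by limma. The region over the Hoxc genes had 196 and 182 RPM in Old and 261 and 219 RPM in OldAcetate, and that over the Hoxd genes 53.2 and 48.9 RPM in Old and 63.8 and 38.4 RPM in OldAcetate.

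Markers of other cell types were measured beside these lists. The summed level of the 9 blood and macrophage regions was 146 and 153 RPM in Old and 157 and 162 RPM in OldAcetate, with a median log2 fold change of 0.11. Of these regions 7 had a fold change above 0. Without overlap, 3 were higher with acetate and 1, that of Cx3cr1, was lower. Cx3cr1, a chemokine receptor of macrophages, had 12.0 and 12.3 RPM in Old and 7.39 and 5.42 RPM in OldAcetate, lower in both acetate libraries (log2 fold change -0.89, limma adjusted p = 0.121). The 5 endothelial regions summed to 74.0 and 66.4 RPM in Old and 84.3 and 83.0 RPM in OldAcetate, the 4 neural ones to 35.1 and 38.98 RPM and 44.7 and 47.5 RPM, and the 2 liver and gut ones to 37.4 and 37.0 RPM and 47.4 and 35.9 RPM. None of these 20 regions was called by limma, and 1 endothelial region was higher and 1 blood region lower at an unadjusted p under 0.05. Their part in the results was not tested.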

How the data were processed

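H3ac CUT&RUN was measured in 6 libraries, 2 each of Young, Old and OldAcetate. The submitters' processing notes name mm10, Bowtie2 and Picard, and region calling and scaling are not given in the sources used here. Yeast DNA was in the stop buffer, and its use is not stated. The deposited values are RPM: 100% were whole multiples of 1 read (tolerance 0.01) and were not divided by region length, so library totals and whole reads were recovered. Regions were annotated with GENCODE release M21 and the GRCm38 genome. The main test was limma 3.58.1 (R 4.3.3) on log2(RPM + 0.5), 6 libraries in 1 fit, eBayes with trend and robust, Benjamini-Hochberg 0.05, as given and after median-of-ratios scaling. Fold changes on this scale understate changes of low regions. edgeR 4.0.16 and DESeq2 1.42.0 on recovered reads were alternatives. Library values were compared by exact two-sided permutation tests. Named regions were the 14 largest called rises and up to 6 falls at or above the median level without overlap, the 5 lowest p in each direction after scaling, 12 genes of acetate use and lineage, and 3 regions from earlier work. One of the 14, which is also among the 5, is not reported here. Other called regions are named as chosen after their values were seen. Single genes described from the lists beyond these 12 were fixed by no rule and are examples. The members, rules and gene lists were chosen with earlier results of these data known. Lists are described without tests.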

Additional observations from a re-analysis of the deposited data

How the results depend on the processing

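The level over all regions, the share of reads in regions, the promoter minus distal difference and the CpG-rich minus CpG-poor difference kept their sign under the alternatives tried, and the broad minus narrow difference of 0.03 became -0.00217 with broad regions taken from 10 kb. Regions called with the values as given (76) numbered 143 without the lowest 25% of regions, 245 with only the 4 compared libraries, 7 with eBayes without trend and robust, 21 with edgeR without factors and 1 at the threshold of 0.01, and ranged from 0 to 441 when single libraries were left out. All were higher, except 1 lower with the 4 libraries and 1 lower without Young replicate 1. After scaling (0), limma called 2 lower with the 4 libraries, 2 higher with quantile normalization and from 0 to 3 when single libraries were left out (2 and 3 lower without Young replicates 1 and 2, 1 higher without Old replicate 2), and the lower ones are the repeat-rich regions on chromosomes 2, 11 and 17. The replicate numbers showed no sign of a pairing of libraries (correlations of deviations 0.01, -0.03 and -0.04 between groups). At the read depth of these libraries, counting noise can hide a shared deviation, so whether libraries are paired is not decided. With the replicate number as a block, limma called 201 regions as given and 0 after scaling (1436 at an unadjusted p under 0.05). Among single regions, the sign turned when a library was left out for Acly (-0.0155 to 0.67), Acss1 (-0.31 to 0.45) and Crebbp (-0.0414 to 0.23). The cause was not tested. With a median of 31 to 48 reads a region and 2 libraries a group, small changes of single regions are not resolved.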

Other observations

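The table names each region with a code of the letters AC, O and Y, which the labels do not define. Since the authors made these codes from the same libraries, the values are a description. Of the 76 regions called with the values as given, 60 had all 3 letters, 15 had AC and Y and 1 had Y alone. These were 0.305%, 0.506% and 0.0878% of the regions with each code, beside 0.311% of all regions. For called regions without the letter O, the direction is not independent of the code. The 19702 regions with all 3 letters had a median log2 fold change (OldAcetate / Old, values as given) of 0.23, the 2964 regions with AC and Y 0.40, the 618 with O and Y -0.16 and the 1139 with Y alone 0.14. Regions with more start sites of protein-coding genes had higher medians, at 0.20 in 13718 regions with none inside, 0.29 with 1, 0.30 with 2 and 0.32 in 215 regions with 3 or more. In the last of these groups acetate was higher without overlap in 85.1%, beside 47.1% of all regions. Distance from a start site beyond 1 kb made little difference, with medians of 0.20 at 1 to 10 kb, at 10 to 50 kb and at 50 to 100 kb, and 0.19 beyond 100 kb. By level per kb, which allows regions of different length to be set side by side, the medians from the lowest to the highest quartile were 0.19, 0.22, 0.25 and 0.29.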
